A study of Mus musculus with 7 samples.

Results

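Nefl, Rfx4, Insm1, Soga3, Prss8 and Galr2 are 6 genes from the study's list of 66 putative Reprogramming-Inducible Enhancers (RIEs), stretches near gene starts where binding peaks of the reprogramming factors Oct4, Sox2, Klf4 and Myc lie side by side. They were selected on the ATAC-seq peaks at the RIE itself, with 1 or more on days 1, 2, 3, 6 and 9 of reprogramming and none at day 0 or in embryonic stem cells (ESCs). In all, 15 of the 66 RIEs, which belong to 65 genes, met that condition (22.7%), and the other 9 of the 15 serve here for comparison. The presence of a peak at the RIE is therefore how the genes were found and is given as a description. The peaks around the genes, away from the RIE, were not used in the choice and are the measurement of interest.

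The starting cells were mouse embryonic fibroblasts (MEFs) from a cross of mice with the allele Col1a1tm1(tetO-Pou5f1,-Klf4,-Sox2,-Myc)Hoch on a B6;129S4 background and mice with Gt(ROSA)26Sortm1(rtTA*M2)Jae on a B6.Cg background. They carry the OKSM factors in the Col1a1 locus behind a tetO promoter and the rtTA transactivator in the ROSA26 locus, so that doxycycline switches the factors on. Doxycycline at 2 µg/mL was given to the libraries of days 1, 2, 3, 6 and 9, while the MEFs of day 0 and the Bruce-4 ESCs received none, and the label gives the ESCs the same genotype as the MEFs. Each of the 7 time-points has 1 library of bulk cells, without replicates. No test between time-points could be run, and a change in a few cells cannot be told apart from a weaker change in many.

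ATAC-seq uses the Tn5 transposase to cut DNA where it is not wrapped in nucleosomes, and a peak marks a place where cuts pile up above the local level. During reprogramming the introduced factors bind closed and open sites of the fibroblast genome, and a site may gain accessibility early and lose it again before the pluripotent state is reached. The genes differ in what they encode. Nefl is the light subunit of neurofilaments, the intermediate filaments of axons. Rfx4 is a winged-helix transcription factor of the RFX family, known from brain development and cilia. Insm1 is a zinc-finger factor of neuronal and neuroendocrine progenitors. Prss8 is prostasin, a membrane-anchored serine protease of epithelia, and Galr2 is a G protein-coupled receptor for the neuropeptide galanin. Soga3 belongs to a small family with Soga1.

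The libraries held between 27074 peaks (ESCs) and 61241 peaks (day 0), at least 200 bp wide each, with medians of 364 to 394 bp. A peak within 1000 bp of the gene start was found for 6 of 10 MEF markers at day 0 (Col1a1, Col1a2, Col3a1, Thy1, Twist1 and Snai2) and for 2 of 10 in ESCs. Of 10 ESC markers, 1 had such a peak in the library labelled ESCs (Zfp42), and Nanog, Sox2 and Esrrb had none there. Nanog, Esrrb, Dppa4, Tdgf1 and Lin28a had no promoter peak in any library and so do not separate the labels. Sox2 had one on days 1 and 6, Dppa5a on days 1, 2 and 3, and Utf1 on days 0, 1, 3 and 9. Tfcp2l1 had one on every day but day 2, and none of them had one in ESCs. As a set the ESC markers thus do not mark the ESC library. The RIEs of the pluripotency genes Pou5f1 and Zscan10 and the promoters of the epithelial genes Cdh1, Cldn7 and Esrp2 had a peak in ESCs alone. These are picked cases, since 3 of 10 epithelial markers had a promoter peak in ESCs. The RIE of Lefty1, which the paper calls a stemness marker, had peaks on days 1, 2, 3, 6 and 9 and none in ESCs. Of all protein-coding genes, 54.5% had a promoter peak at day 0 and 46.0% in ESCs.

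The stretches of mm10 under the RIE peaks are printed first, all on the plus strand, since they are the DNA that the choice of the genes rests on. Each is taken around the centre of the merged RIE peaks, shifted or shortened where 300 bases there would run into an annotated untranslated exon. For Galr2 the centre of the day 6 peak was used instead, and the end of that stretch overlaps a day 0 peak beside the RIE. Capitals mark matches, on either strand, to short motifs of reprogramming and fibroblast factors that are spelled out further on. The intervals are chr14:68081907-68082206 (Nefl), chr10:84755762-84756061 (Rfx4), chr2:146221864-146221920 (Insm1), chr10:29143779-29143838 (Soga3), chr7:127932338-127932637 (Prss8) and chr11:116282088-116282387 (Galr2).
Nefl RIE: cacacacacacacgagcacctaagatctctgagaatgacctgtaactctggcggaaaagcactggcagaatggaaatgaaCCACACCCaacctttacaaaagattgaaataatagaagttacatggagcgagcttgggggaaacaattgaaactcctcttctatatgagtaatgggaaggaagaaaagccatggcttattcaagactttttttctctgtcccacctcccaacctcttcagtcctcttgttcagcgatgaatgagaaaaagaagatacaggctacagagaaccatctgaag
Rfx4 RIE: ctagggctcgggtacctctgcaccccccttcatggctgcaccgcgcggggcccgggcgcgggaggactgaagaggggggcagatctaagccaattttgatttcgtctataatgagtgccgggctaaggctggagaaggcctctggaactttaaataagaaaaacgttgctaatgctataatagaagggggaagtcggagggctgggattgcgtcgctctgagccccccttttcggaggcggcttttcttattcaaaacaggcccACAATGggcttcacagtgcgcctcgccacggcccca
Insm1 RIE: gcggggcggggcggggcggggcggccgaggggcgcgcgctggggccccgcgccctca
Soga3 RIE: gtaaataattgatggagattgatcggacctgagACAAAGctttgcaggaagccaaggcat
Prss8 RIE: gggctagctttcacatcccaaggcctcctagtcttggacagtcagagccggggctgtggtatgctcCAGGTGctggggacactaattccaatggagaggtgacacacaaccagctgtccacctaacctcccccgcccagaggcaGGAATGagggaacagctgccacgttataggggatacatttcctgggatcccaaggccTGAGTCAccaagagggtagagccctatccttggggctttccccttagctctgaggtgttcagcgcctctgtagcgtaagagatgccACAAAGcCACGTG
Galr2 RIE: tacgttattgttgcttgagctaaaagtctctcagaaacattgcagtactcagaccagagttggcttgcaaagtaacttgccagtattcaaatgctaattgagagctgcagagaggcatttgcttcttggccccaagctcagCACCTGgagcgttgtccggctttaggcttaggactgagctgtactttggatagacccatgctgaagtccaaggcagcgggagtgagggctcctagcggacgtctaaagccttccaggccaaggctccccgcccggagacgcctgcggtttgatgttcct

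A further 3 stretches are printed because they lie beyond the RIEs and had peaks in 4 or 5 of the 5 doxycycline libraries and in no other. The first is in an intron of Rfx4 (chr10:84886184-84886483), the second between the end of Rfx4 and Ric8b (chr10:84910938-84911237) and the third upstream of Insm1 (chr2:146218352-146218651). Each carries 1 match to a Sox motif, shown in capitals.
Rfx4 intron: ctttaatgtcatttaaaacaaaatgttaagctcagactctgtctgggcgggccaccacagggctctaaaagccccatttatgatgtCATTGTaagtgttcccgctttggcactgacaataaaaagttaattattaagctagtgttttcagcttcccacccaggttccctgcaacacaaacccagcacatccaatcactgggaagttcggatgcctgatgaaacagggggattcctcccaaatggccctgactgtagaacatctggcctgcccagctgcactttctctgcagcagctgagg
Rfx4 downstream: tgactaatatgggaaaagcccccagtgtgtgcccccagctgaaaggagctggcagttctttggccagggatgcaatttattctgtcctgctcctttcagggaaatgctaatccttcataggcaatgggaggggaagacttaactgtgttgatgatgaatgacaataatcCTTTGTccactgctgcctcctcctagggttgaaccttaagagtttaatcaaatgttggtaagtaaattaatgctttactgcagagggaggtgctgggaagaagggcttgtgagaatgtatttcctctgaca
Insm1 upstream: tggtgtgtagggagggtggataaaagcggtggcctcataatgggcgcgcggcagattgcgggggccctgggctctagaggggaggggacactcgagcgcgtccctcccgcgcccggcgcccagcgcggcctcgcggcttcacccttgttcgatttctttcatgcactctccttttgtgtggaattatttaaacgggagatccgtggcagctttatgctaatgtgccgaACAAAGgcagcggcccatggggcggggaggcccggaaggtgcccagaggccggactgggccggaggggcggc

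The RIE peaks of the 6 genes were most frequent on days 3 and 6 and were mostly narrow. The number of genes with an RIE peak was 1 at day 1, 2 at day 2, 4 at day 3, 5 at day 6 and 2 at day 9. None of the 6 kept a peak through all 5 doxycycline libraries. These counts come from the peaks that chose the genes and describe the choice. The 16 RIE peaks were 200 to 581 bp wide with a median of 321 bp, and 12 of them were narrower than the median peak of their own library. With peaks at least 300 bp wide, or with the 27074 widest peaks of each library, 5 of the 6 genes kept the pattern and Insm1 lost it, and with a minimum cover of 50% of the RIE just Rfx4 and Galr2 kept it.

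Rfx4 had the widest and longest-lasting opening at its RIE, which spans chr10:84754805-84756224 (1420 bp) and covers the 5′ end of the gene (ENSMUSG00000020037.15, chr10:84756062-84906538, plus strand). Peaks of 534 bp at day 2, 581 bp at day 3, 313 bp at day 6 and 385 bp at day 9 all began upstream of the gene start. They reached into the first exon, and day 3 had a second peak of 291 bp further upstream. The covered share of the RIE was 34.7% at day 2, 57.6% at day 3, 22.0% at day 6 and 23.3% at day 9. The library of day 1 had no peak nearer than 42603 bp, day 0 none nearer than 18326 bp and ESCs none nearer than 68487 bp. Of the 6 RIEs this one is farthest from any peak of day 0 or ESCs.

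Nefl (ENSMUSG00000022055.7, chr14:68083863-68089095, plus strand) had peaks in the upstream part of its RIE (chr14:68081605-68083379, 1775 bp), in intergenic sequence. They were 235 bp wide at day 1, 383 bp at day 3 and 200 bp at day 6, and covered 13.2%, 21.6% and 11.3% of the RIE. The peaks of days 1 and 6 did not overlap each other, and that of day 3 bridged them. Days 2 and 9 had none nearer than 29662 and 36761 bp, while the nearest ESC peak was 1571 bp away, inside the gene.

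Prss8 (ENSMUSG00000030800.10, chr7:127925716-127930104, minus strand) had RIE peaks of 266 bp at day 2, 387 bp at day 6 and 454 bp at day 9, which covered 17.9%, 26.0% and 30.5% of the RIE (chr7:127931602-127933090, 1489 bp). It was the only gene of the 6 besides Rfx4 with an RIE peak at day 9. The RIE lies between Prss8 and Prss36, another serine protease gene, and runs into the last exons of Prss36. Day 3 had no RIE peak, and the nearest one, like those of day 0, day 1 and ESCs, was 2162 to 2168 bp away at an annotated start inside Prss36.

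Galr2, Soga3 and Insm1 had RIE peaks on days 3 and 6, day 3 and day 6, in that order. The Galr2 RIE (chr11:116282031-116282276, 246 bp), in an intron of ENSMUSG00000020793.5 (chr11:116280939-116283938, plus strand), was covered to 16.7% by a 200 bp peak at day 3 and to 99.6% by a 412 bp peak at day 6. This RIE sits at the edge of the selection, since the day 0 peak nearest to it was 55 bp away and the day 3 peak overlapped it by 41 bp. With a margin of 500 bp around the RIE, Galr2 alone of the 6 left the class. Among RIEs outside the class the closest were those of F2, with 21 bp covered in ESCs, and Dab1, with 113 bp.

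Soga3 (ENSMUSG00000038916.7, chr10:29143839-29199630, plus strand) had 2 peaks at day 3, of 247 and 329 bp, over 47.7% of its RIE (chr10:29143456-29144178, 723 bp) at the first exon. An antisense transcript, Gm9996, covers the same stretch, and the peaks cannot be assigned to one or the other. Insm1 (ENSMUSG00000068154.5, chr2:146221921-146225020, plus strand) had 1 peak of 225 bp at day 6, at the start of its single exon and over 32.1% of the RIE (chr2:146221561-146222261, 701 bp). In the day 6 library 26.4% of all peaks were as narrow as this one or narrower. Over the 7 libraries, Insm1 shared its pattern of peaks with the RIE of Bcat1, and Galr2 shared its pattern with that of Shroom3.

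**Figure D1:**
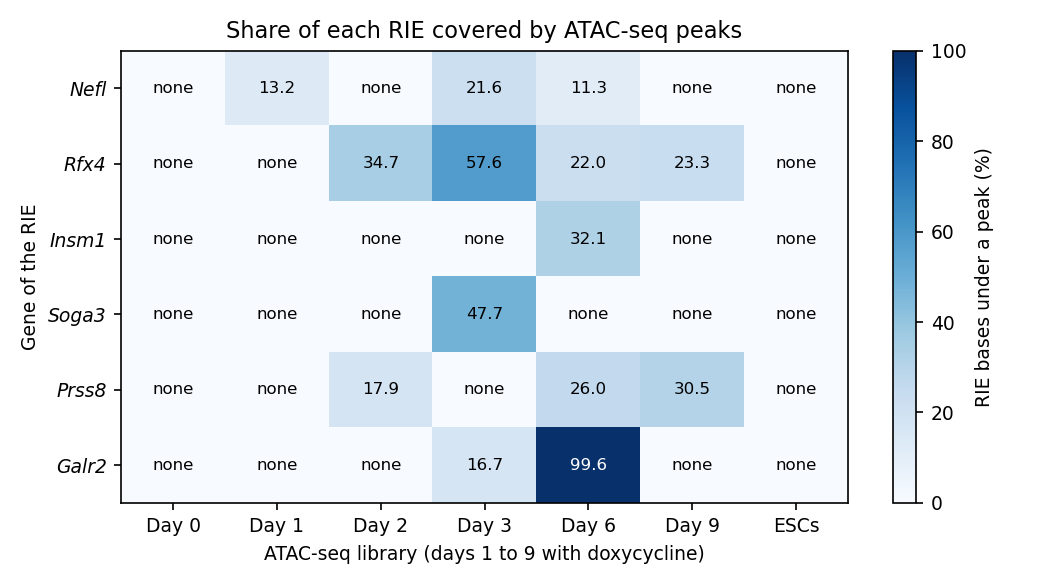
Percentage of the bases of each RIE (rows) under an ATAC-seq peak in each of the 7 libraries (columns); "none" marks a library with no peak. The highest value is 99.6% at Galr2 at day 6, and the day 0 and ESC columns are empty because the genes were chosen so.

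Beyond the RIE, the surroundings of the 6 genes did not follow one course. Peaks within 20 kb of the gene bodies that did not touch the RIE numbered 15 at day 0, 11 at day 1, 9 at day 2, 16 at day 3, 14 at day 6, 9 at day 9 and 8 in ESCs. Per 100 kb this is 3.25 at day 0 against 3.84 for all 21938 protein-coding genes, 3.46 against 3.22 at day 3, and 1.73 against 1.96 in ESCs. On days 1, 2 and 9 the 6 genes had 2.38, 1.95 and 1.95 peaks per 100 kb against 3.06, 2.39 and 2.39, and at day 6 they had 3.03 against 3.09. Peaks at the RIE were left out for the 6 genes, while no peak was left out for all genes, so the counts are not fully alike. Without their RIE peaks the 6 genes were near the density of all genes, with no replicate to judge the gaps by. The median number of peaks per gene was 2.5 against 3 at day 0, 2.5 against 2 at day 3 and 1.5 against 1 in ESCs, and 4 to 6 of the 6 genes had at least 1 peak in each library. The order of the libraries depended on narrow peaks, since 11 of the 15 peaks of day 0 were under 300 bp wide. With the 27074 widest peaks of each library day 0 kept 4 peaks, below the 10 of day 3 and the 10 of day 6.

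**Figure D2:**
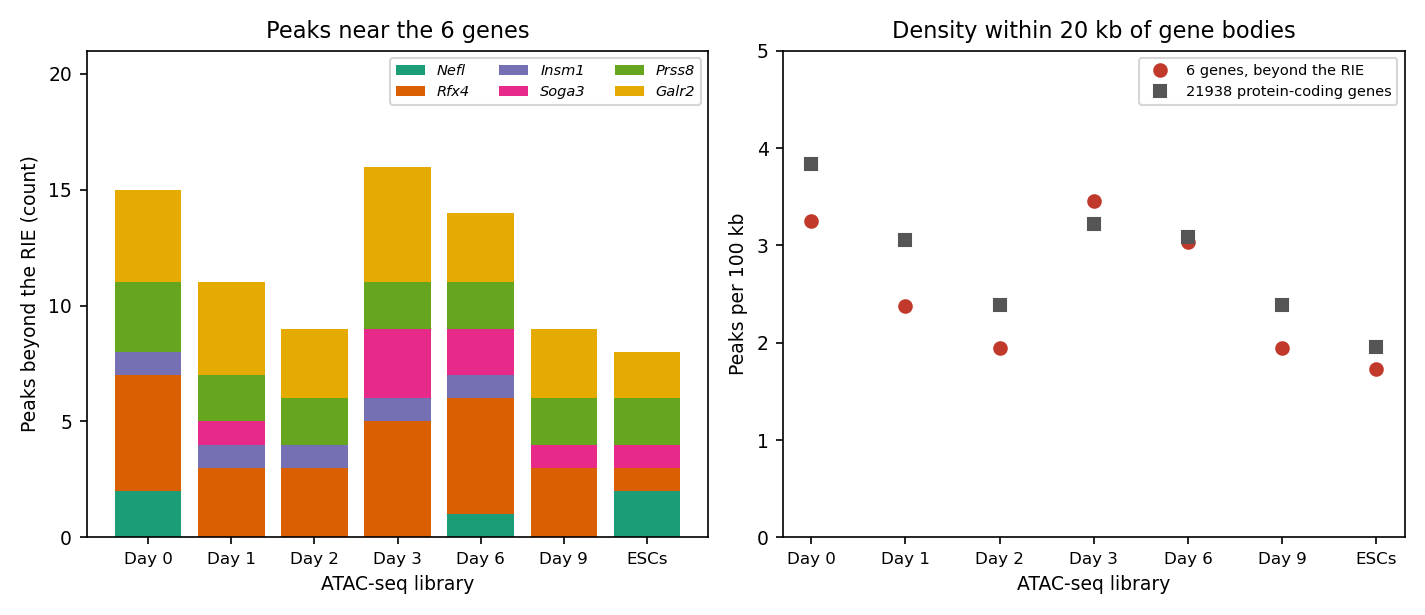
Left, number of peaks within 20 kb of the 6 gene bodies and beyond the RIE, stacked by gene, in each library. Right, the same as peaks per 100 kb (circles) beside all 21938 protein-coding genes (squares), for which no peak was left out. The circles stay near the squares, at 3.25 against 3.84 at day 0 and 3.46 against 3.22 at day 3.

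When touching or overlapping peaks of the 7 libraries were merged, 27 regions lay around the 6 genes beyond the RIEs. Of these, 10 had peaks on days 1 to 9 alone (transient regions), 9 at day 0 but not in ESCs, 4 at day 0 and in ESCs, 2 in ESCs and on a doxycycline day, and 2 in ESCs alone. The transient share was 37.0% (exact Clopper-Pearson 95% interval 19.4% to 57.6%, counting error only) beside 30.7% of all 104346 merged regions, which lies inside that interval. At least 1 transient region was found beside 5 of the 6 genes. Of protein-coding genes 58.8% have one, with no region left out for them. Among other RIE genes it was found beside 8 of the 9 of the class and 14 of the 20 open in MEFs. It was beside 7 of the 16 open with doxycycline and in ESCs. For those without an RIE peak it was 6 of 8, and for those open in ESCs alone 3 of 7. Longer windows can hold more regions, and that of Rfx4 reached 190.5 kb. Around the other 9 RIE genes of the class 25 of 88 regions were transient (28.4%), around 16 RIE genes open with doxycycline and in ESCs 25.5%, around 20 RIE genes open in MEFs 26.7%, around 8 whose RIE had no peak 26.0%, and around 7 open in ESCs alone 18.5%. All of these shares but the last lie within the interval of the 6 genes, and the differences were not tested.

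The 10 transient regions were spread unevenly, with 4 at Rfx4, 3 at Soga3 and 1 each at Nefl, Insm1 and Galr2, while Prss8 had none. They had peaks in 5 cases at day 1, 3 at day 2, 8 at day 3, 6 at day 6 and 2 at day 9. Of all 32025 transient regions, 46.7% had a peak at day 1, 27.9% at day 2, 51.1% at day 3, 44.1% at day 6 and 27.1% at day 9, so day 3 was highest and day 9 lowest around the genes as in the genome. Of the 10, 4 were seen in 1 library, beside 55.7% of all transient regions in the genome. Their median width was 370.5 bp, compared with 273 bp for all transient regions.

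**Figure D3:**
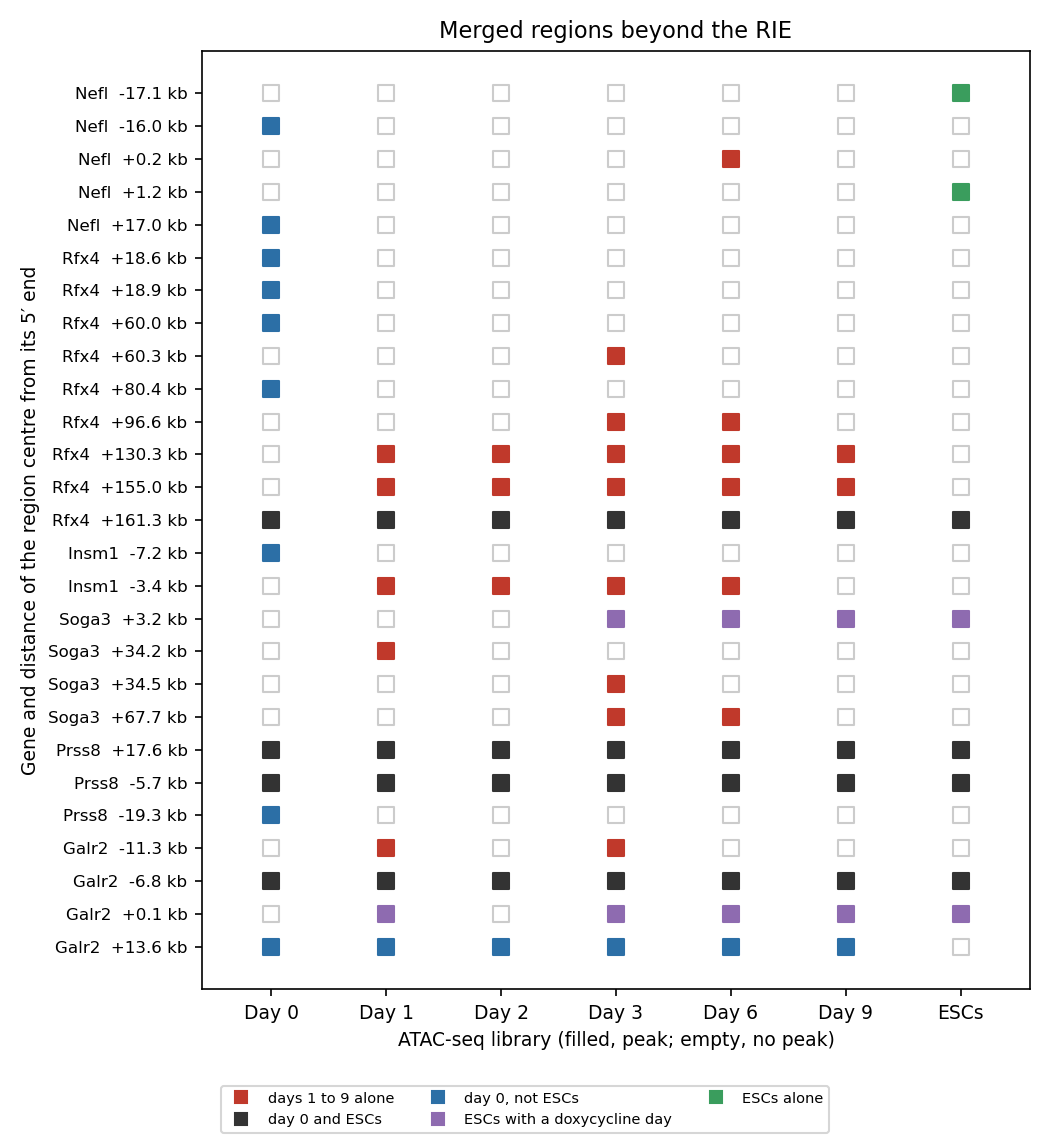
Presence (filled) or absence (empty) of a peak in each library for the 27 merged regions beyond the RIEs, named by gene and distance of the centre from the 5′ end of the gene in kb. The 10 red rows are transient, and 2 of them, both at Rfx4, are filled in all 5 doxycycline libraries.

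Rfx4 had 4 transient regions in the longest window of the 6 genes (190.5 kb), or 2.10 per 100 kb, beside 3.13 at Soga3, 2.33 at Galr2, 2.32 at Insm1, 2.21 at Nefl and 0 at Prss8. The regions 34207 and 34515 bp from the start of Soga3 were 203 and 201 bp wide, in 1 library each. They become 1 region when peaks up to 300 bp apart are merged, so the density at Soga3 depends on the merging distance. The regions with peaks in all 5 doxycycline libraries were both at Rfx4. An intronic region with its centre 130272 bp from the gene start (chr10:84885942-84886725, 784 bp) had peaks of 520, 576, 507, 540 and 441 bp on days 1, 2, 3, 6 and 9. A region downstream of the gene, 155026 bp from its start (chr10:84910638-84911537, 900 bp), had peaks of 830, 794, 705, 895 and 728 bp on the same days. Neither had a peak at day 0 or in ESCs. These are 2 of 27 regions in the class of all 5 doxycycline libraries and no other, which holds 2.84% of merged regions in the genome. Both had a peak at day 1, where the RIE at the Rfx4 promoter had none. That RIE pattern chose the gene and a missing peak does not show a closed site, so no order of opening can be drawn.

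The remaining transient regions of Rfx4 were intronic. One, 96642 bp from the start, had a peak of 481 bp at day 3 and 2 peaks of 200 and 221 bp at day 6, and another, 60269 bp from the start, had a single 200 bp peak at day 3. A further 4 intronic peaks, 200 to 269 bp wide, were limited to day 0. One of them, 60029 bp from the start (chr10:84815980-84816201), lay directly beside the day 3 peak at 60269 bp (chr10:84816231-84816430). When peaks up to 300 bp apart are merged, the 2 form 1 region, which then is not transient. At the far end of the window the promoter of Ric8b, a chaperone of G protein alpha subunits, was open in all 7 libraries with peaks of 611 to 951 bp.

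Insm1 had a region 3419 bp upstream of its start (chr2:146218255-146218749, 495 bp), in intergenic sequence, with peaks of 200 bp at day 1, 266 bp at day 2, 427 bp at day 3 and 423 bp at day 6. It had none on days 0 and 9 and none in ESCs. On days 1, 2 and 3 this upstream region had a peak and the RIE had none. The RIE pattern chose the gene and a missing peak does not show a closed site, so no order of opening can be drawn. The one other region near Insm1 was a 200 bp peak of day 0 in the last exons of Cfap61.

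Nefl had 5 regions beyond its RIE, each in 1 library. A 236 bp peak in the coding part of the first exon was found at day 6 alone, and a 253 bp peak at the end of the same exon, 1214 bp from the start, in ESCs alone. A transcript of the neighbouring Nefm, the medium neurofilament subunit, is annotated over the same exon, so that these peaks lie in both genes. The other 3 were intergenic or within the span of Nefm, and belonged to day 0 (2 regions) or ESCs (1 region).

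Soga3 had no peak within 20 kb at day 0 or day 2. A region 3174 bp inside the gene (chr10:29146689-29147336, 648 bp), beside the start of shorter transcripts, had peaks of 294 bp at day 3, 382 bp at day 6, 200 bp at day 9 and 464 bp in ESCs. This part of Soga3 was open in ESCs while the RIE at the upstream start had a peak at day 3 alone. The 3 transient regions of 201 to 246 bp lay farther along, at 34207 bp (day 1), 34515 bp (day 3) and 67659 bp (days 3 and 6), and the last of these sits at the start of 9330159F19Rik.

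Around Prss8 all that was open besides the RIE belonged to neighbours or to day 0. The stretches at the promoter of Kat8, a histone acetyltransferase, and around an internal start of Prss36 had peaks in all 7 libraries. A 220 bp intergenic peak 19348 bp upstream was limited to day 0. Prss8 itself had no peak within 1000 bp of either annotated start in any of the 7 libraries.

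Galr2 had peaks at its own start in 5 of the 7 libraries. Its promoter region (chr11:116280747-116281327, 581 bp) had peaks of 337 bp at day 1, 456 bp at day 3, 311 bp at day 6, 358 bp at day 9 and 200 bp in ESCs, and none on days 0 and 2. Beside the RIE, day 0 had a 232 bp peak and day 2 a 217 bp peak, so that days 0, 2, 3 and 6 join into 1 merged region there. A transient region 11317 bp upstream, in an intron of Srp68, had peaks of 252 bp at day 1 and 402 bp at day 3. The promoter of Srp68, a signal recognition particle gene, was open in all 7 libraries, and a region in Exoc7 was open in every library but ESCs.

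**Figure D4:**
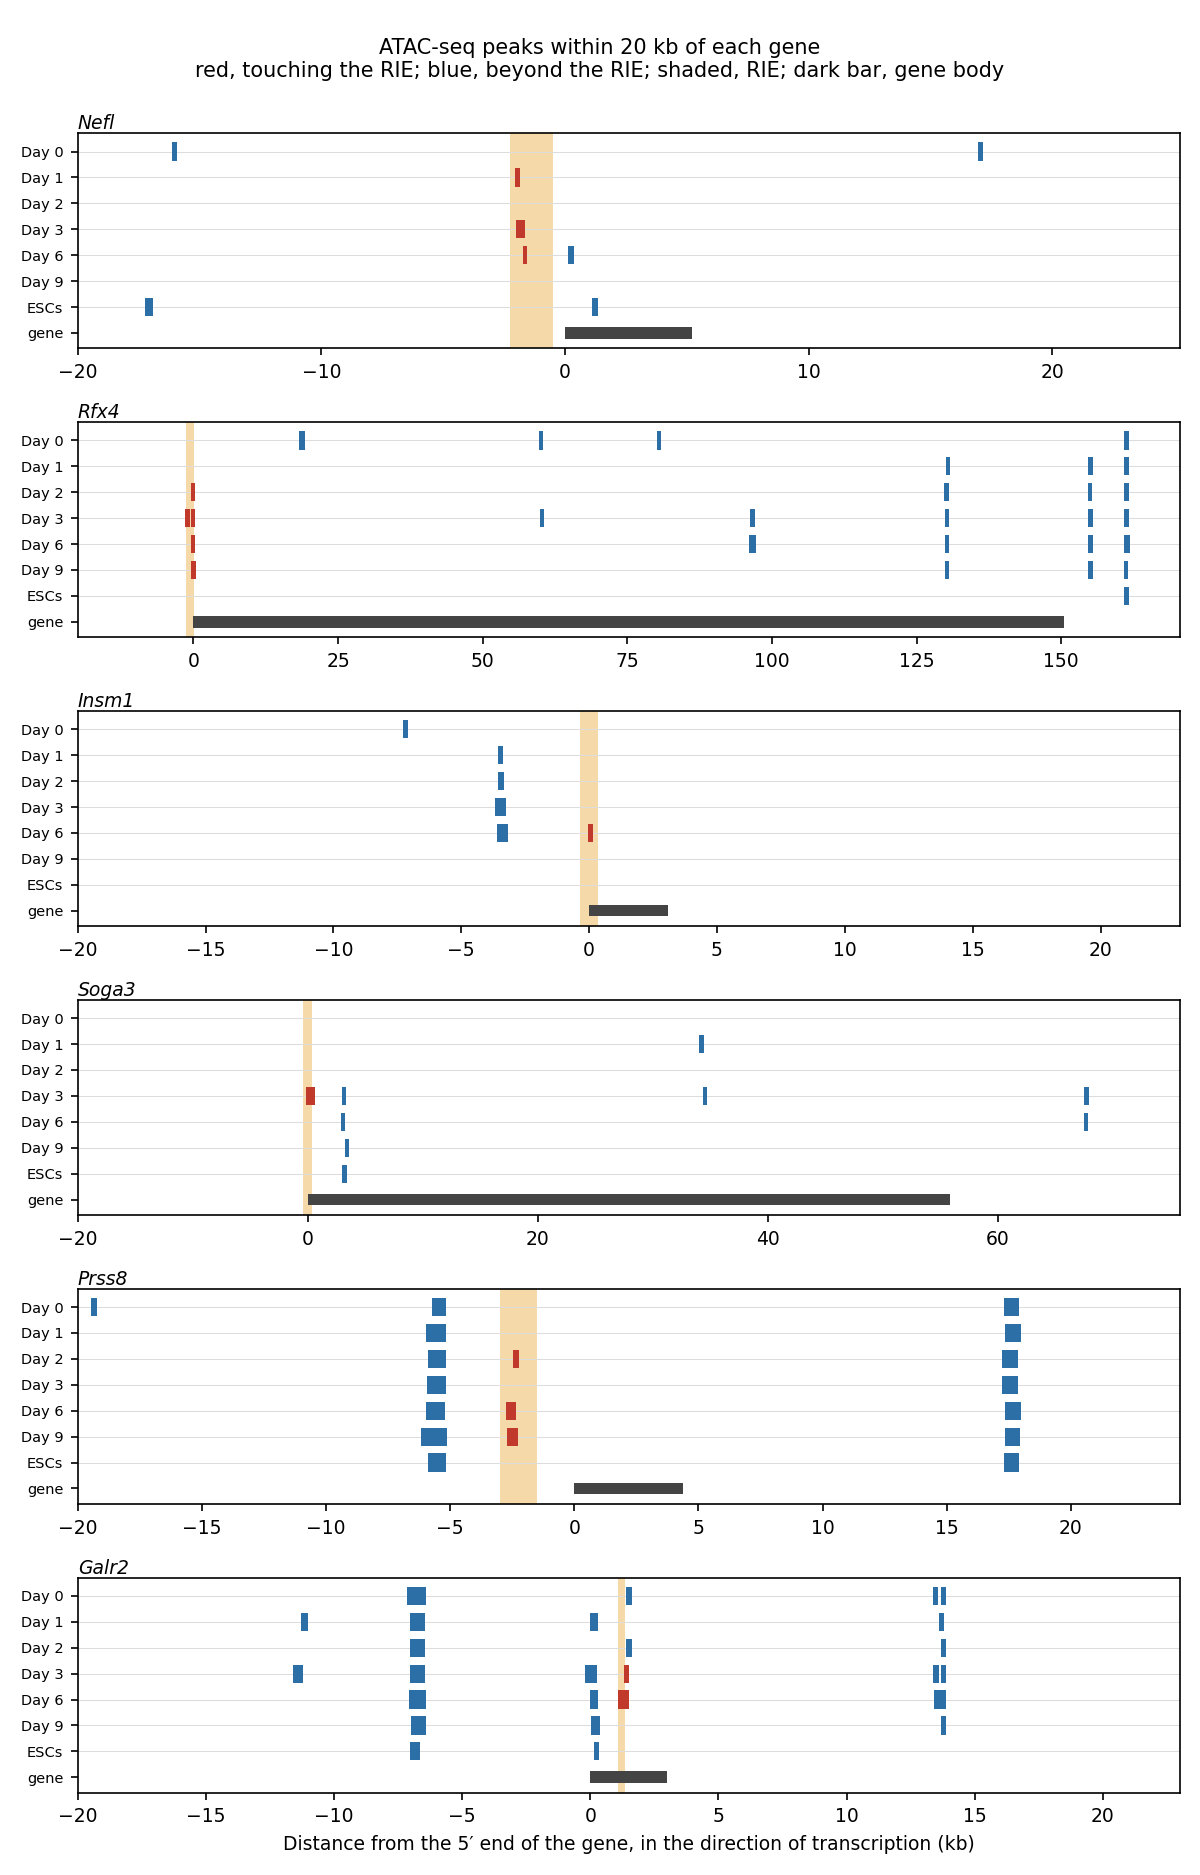
Peaks of the 7 libraries within 20 kb of each gene body, by distance from the 5′ end of the gene in kb along the direction of transcription; red peaks touch the RIE (shaded), blue ones do not, and the dark bar is the gene body. Bars narrower than 0.4% of a panel are drawn at that width. At Rfx4 the peaks 130272 and 155026 bp from the start are present from day 1 to day 9 and absent at day 0 and in ESCs.

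At the promoters, taken as 1000 bp to each side of the 5′ end of the gene, none of the 6 genes had a peak at day 0, where 54.5% of protein-coding genes had one. The count was 1 of 6 at day 1 (50.7% of all genes), 1 at day 2 (46.9%), 3 at day 3 (51.4%), 4 at day 6 (52.6%), 2 at day 9 (48.8%) and 1 in ESCs (46.0%). Rfx4 had a promoter peak on days 2, 3, 6 and 9, Galr2 on days 1, 3, 6 and 9 and in ESCs, Nefl and Insm1 at day 6 and Soga3 at day 3. The RIEs of Rfx4, Insm1 and Soga3 cover the gene start and that of Nefl reaches into the promoter window. The choice of the genes thus in part fixed their counts at day 0, in ESCs and on doxycycline days. All promoter peaks of Rfx4, Insm1 and Soga3 touched the RIE and were among the peaks that chose the genes. The RIEs of Prss8 and Galr2 lie outside the window. Of the 9 other genes of the class, 5 had a promoter peak at day 0, 6 at day 1, 6 at day 2, 8 at day 3, 8 at day 6, 6 at day 9 and 3 in ESCs. When every annotated start was used, Galr2 had a peak in all 7 libraries and Soga3 on days 3, 6 and 9 and in ESCs.

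The relatives of the 6 genes, listed by family, had promoters of every kind, from peaks in all libraries to peaks in none. Among 8 RFX factors, Rfx1, Rfx2, Rfx3, Rfx5 and Rfx7 had a promoter peak in all 7 libraries, Rfx6 in ESCs alone and Rfx8 in none, which gives 5, 5, 6, 6, 6, 6 and 6 of 8 from day 0 to ESCs. Rfx4 was the only RFX gene with a promoter peak on doxycycline days and neither at day 0 nor in ESCs. Its promoter peaks are the RIE peaks on which it was chosen, so this pattern describes the choice. Of 8 neurofilament and other intermediate filament genes 6 had a peak at day 0, 4 at day 1, 3 at day 2, 3 at day 3, 7 at day 6, 3 at day 9 and 2 in ESCs. On day 6 the neurofilament genes Nefl, Nefm and Nefh, together with Ina, Prph, Vim and Gfap, all had one, and Nes had none. Vim, the filament protein of fibroblasts, had a promoter peak in all 7 libraries.

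Insm2, the other gene of the Insm pair, had a promoter peak on days 1, 3 and 9 and in ESCs, so that the pair had 0, 1, 0, 1, 1, 1 and 1 from day 0 to ESCs. Of Soga3, Soga1 and Mtcl1, Soga1 had one in every library and the counts were 2, 2, 1, 2, 2, 1 and 1 of 3. Among 9 genes of the prostasin pathway the counts were 3, 2, 1, 1, 2, 3 and 3. St14, the matriptase that acts with prostasin, had a promoter peak on days 0 and 9, its inhibitor Spint1 in ESCs alone and Spint2 on days 1, 6 and 9 and in ESCs. Of the subunits of the epithelial sodium channel, Scnn1g had a peak in all 7 libraries, Scnn1a and Scnn1b in none. In the galanin system of 7 genes the counts were 1, 2, 1, 1, 2, 2 and 2, all of them from Galr2 and Kiss1r, the kisspeptin receptor, while the ligand gene Gal and the receptor genes Galr1 and Galr3 had no promoter peak in any library.

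Promoter peaks at markers of the tissues in which the 6 genes are known, and of other cell types, were counted in the same way. Of 10 neural markers, 2, 3, 3, 3, 4, 3 and 5 had one from day 0 to ESCs, with Tubb3 and Map2 in every library, Stmn2 in every library after day 0, and Pax6, Neurod1, Dcx and Elavl3 among those in none. The 5 neuroendocrine markers gave 2, 2, 2, 2, 3, 2 and 3, and the added gene of day 6 was Syp. The 10 epithelial markers gave 0, 1, 1, 1, 1, 1 and 3, with Cdh1, Cldn7 and Esrp2 in ESCs. The 10 MEF markers gave 6, 6, 4, 6, 5, 5 and 2 and the 10 ESC markers 2, 4, 1, 3, 2, 2 and 1. Of 5 blood markers 2, 1, 0, 1, 1, 0 and 1 had a peak, with Ptprc, Csf1r and Spi1 in none, and of 5 endothelial markers 3, 1, 2, 2, 2, 2 and 1, with Cdh5 and Tie1 in none. The part of other cell types in the peaks of the 6 genes was not tested.

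In the 300 bases at the centre of the RIE peaks, on both strands, a Sox motif (ACAAAG or ACAATG) was found at 4 of the 6 genes, ACAAAG at Soga3 and Prss8 and ACAATG at Rfx4 and Insm1. All merged regions held either motif in 36.7% of cases and transient ones in 45.4%, and ACAAAG alone in 25.0% and ACAATG alone in 16.5% of all. Of the 10 transient regions beyond the RIEs 6 had either motif, ACAAAG in 4 and ACAATG in 2. The Klf motif GGGTGTGG was at Nefl and Soga3 (5.01% of all regions), at Soga3 not within the RIE, and GGGCGTGG at none (2.58%). The octamer ATGCAAAT, the form bound by Oct4 and its relatives, was at none of the 6 RIE centres and none of the 10 regions. It was in 3.19% of all regions and 5.34% of transient ones. These windows are centred on the peaks, so for Rfx4, Insm1, Prss8 and Galr2 they are shifted from the stretches printed above. For Soga3 the window lies on the second peak of day 3 and the printed stretch on the first, and the ACAAAG printed is not the one counted. The ACAATG of Insm1 and the GGGTGTGG of Soga3 are not in the printed stretches, and the CAGGTG printed for Prss8 lies outside the window counted.

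Each of the remaining motifs was at 1 or none of the 6 RIE centres. Prss8 alone had the Myc E-box CACGTG (4.97% of all regions), the AP-1 motif TGANTCA (22.3%), known from fibroblast enhancers, and the Tead motif GGAATG (21.3%). Galr2 alone had CAGGTG, the E-box of Snail and Zeb factors (16.7%), and none had GTTGCC, a core of the X-box bound by RFX factors (10.6%). The Galr2 window is centred on the merged region of days 0, 2, 3 and 6 and runs past the RIE, which itself holds CAGGTG. Motifs were searched separately, and their matches may share bases. In the 10 transient regions TGANTCA was found in 2, both at Soga3, GGAATG was found in 1, and the Klf, Myc, Snail or Zeb and RFX motifs were found in none.

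Base composition set Insm1 apart. The GC content of the 300 bases was 78.3% at Insm1, 54.7% at Soga3, 54.0% at Galr2, 52.3% at Rfx4, 51.3% at Prss8 and 43.0% at Nefl, while all merged regions had a median of 48.3% with quartiles of 43.3% and 54.3%. The ratio of observed to expected CpG was 0.964 at Insm1, 0.731 at Rfx4 and 0.581 at Soga3, whose RIEs overlap the gene start, and 0.458 at Galr2, 0.289 at Nefl and 0.255 at Prss8, whose RIEs do not, beside a median of 0.23 over all regions. The Rfx4 regions with peaks in all 5 doxycycline libraries had GC contents of 47.7% (intron) and 45.3% (downstream), close to the median of 46.0% of transient regions, and the region upstream of Insm1 had 64.7%.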

How the data were processed

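ATAC-seq of 7 mouse libraries, 1 per time-point, was used. After trimming (Trimmomatic), alignment to mm10 (Bowtie2) and removal of duplicates (Picard), the authors brought the libraries to one depth and called peaks in each of them with MACS2. The deposited values are peak positions (chromosome, start, end) with no score, so the read depth behind a peak is unknown, and a missing peak means that the signal did not pass the authors' threshold. Other tools named in the submitters' processing notes are SAMtools and deepTools.

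A peak counted when it overlapped by at least 1 bp. Peaks that touch or overlap were merged over the libraries. Genes and exons came from GENCODE M21, windows reached 20 kb past the gene body, and promoters 1000 bp to each side of its 5′ end. RIE positions came from the study's list. Sequence was read from the mm10 genome. Shares carry exact 95% intervals, counting error only, and, for want of replicates, time-points were not tested against each other. Python 3.11.15, numpy 2.4.6, scipy 1.17.1, matplotlib 3.10.9 and BEDTools 2.31.1 were used, and the overlap code was tested on simulated data and checked against BEDTools.

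The 6 genes, the family lists (intermediate filaments, RFX, Insm, Soga, prostasin, galanin) and the marker lists (MEF, ESC, neural, neuroendocrine, epithelial, blood, endothelial) were chosen with earlier results of these data known. Named besides them were the RIEs of the same pattern over the libraries, those nearest the limit of the class, and genes with a start inside a window. Alternatives were peaks at least 300 bp wide, the widest peaks alone, other flanks, margins, merging distances and promoter sizes, peaks of other genes' starts left out, peaks joined to the RIE left out, libraries left out, and whole RIEs for motifs.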

Additional observations from a re-analysis of the deposited data

How the results depend on the processing

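Of 77 values recomputed under an alternative, 44 stayed within 1.5 times the main count, or within its interval for the transient share, and 33 moved. The class held 2 of the 6 genes when 50% of the RIE had to be covered. Peaks beyond the RIE numbered 8, 7, 10 and 5 on days 0, 1 and 3 and in ESCs with flanks of 10 kb, and 32, 34, 25, 36, 29, 23 and 19 from day 0 to ESCs with 50 kb. Peaks at least 300 bp wide gave 4, 7 and 10 on days 0, 1 and 3, and the widest peaks gave the same 4, 7 and 10. Without peaks at other genes' starts there were 7, 5, 9, 5 and 4 on days 1, 2, 6 and 9 and in ESCs. Promoters of 2500 bp gave 1, 2, 3 and 2 genes on days 0, 1 and 2 and in ESCs. In whole RIEs, ACAAAG was at 5 genes, GGGTGTGG at 1, GGGCGTGG at 1, CACGTG at 3, GGAATG at 2 and CAGGTG at 3. Larger windows hold more sequence by construction, as do whole RIEs except that of Galr2 (246 bp). The GGGTGTGG of Soga3 lies outside the RIE and so is not counted in it. Smaller flanks, a minimum width, the widest peaks alone and leaving out other genes' starts can only lower the counts of peaks beyond the RIE. Of those peaks, 11 of 15 at day 0, 4 of 11 at day 1 and 6 of 16 at day 3 were under 300 bp wide. The cause of the other moves was not tested. The transient share ranged from 33.3% to 53.8%.

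No paired analysis was possible because a single library stands for each time-point. The files hold no scores, so peak strength was not compared. The read depth is unknown, and a site without a peak is not shown to be closed.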
